A study of Saccharomyces cerevisiae with 6 samples.

Results

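The wine yeast AWRI796 was compared with the wine yeast VL3 while both fermented a synthetic grape must that contained SO2. Both libraries had a value for 6195 genes, and the comparison took the 5068 of these whose mean deposited value over the 2 libraries was at least 5 RPKM (reads per length of gene and per mapped reads), out of 6611 rows in the deposited table. The other 1127 genes with a value in both strains lay below that minimum. Each side is 1 library, so sizes of difference are given without a test, and no difference between the strains has a replicate check.

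Both are enological (wine making) strains of Saccharomyces cerevisiae, and the labels name no engineered allele in either. Cultures grew at 25 °C in MS300, a medium composed like the must of a white wine, and cells were harvested after 6 g/l of CO2 had been released, which the labels place in mid exponential growth. The compared cultures had received 25 mg/l of SO2. Their counterparts with 0 mg/l, and cultures of the enological strain EC1118 and the vineyard strain R008 with 25 mg/l, stand beside them below, each as 1 library. Total RNA was depleted of ribosomal RNA, and the whole transcriptome was sequenced on a SOLiD 4 instrument.

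SO2 is the preservative of winemaking, and yeast meets it mostly as sulfite. Cells pump sulfite out through the membrane protein Ssu1, bind it with acetaldehyde from fermentation, and reduce it to sulfide for methionine and cysteine in the sulfate assimilation pathway. Genes of ribosomal proteins are transcribed in step with growth, whereas genes of reserve sugars, sterols and iron uptake follow the nutrients and oxygen of the must.

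Levels are scaled RPKM, that is deposited RPKM divided by 1 factor per library, which ranged from 0.88 to 1.153 over the 6 libraries. Differences are AWRI796 minus VL3, taken on log2(scaled RPKM + 1), a scale that understates the difference of genes with low values. RPKM hold no counts, so the depth is unknown. A difference between strains also carries differences in gene sequence, gene models and mapping, whose part was not tested. Among the genes compared, 80 have a near-identical copy and 100 are dubious frames, and 357 others overlap another frame or RNA. Such genes are named below as uncertain.

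With SO2, AWRI796 exceeded VL3 by 2-fold or more in 282 of 5068 genes (5.56%) and fell short of it by as much in 194 (3.83%), which makes 476 genes apart (9.39%). At least 4-fold apart were 31 genes that were higher (0.612%) and 23 that were lower (0.454%). The 25th and 75th percentiles of the difference were -0.34 and 0.38, and the median was -0.002. With unscaled RPKM the median difference moved to 0.13 and the split became 399 higher and 136 lower, so the number on each side depends on the scaling. The same 5068 genes were farther apart in the cultures without SO2, where AWRI796 was higher by 2-fold or more in 457 (9.02%) and lower in 386 (7.62%). The median distance of a gene from 0 was 0.36 with SO2 and 0.44 without.

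**Figure D1:**
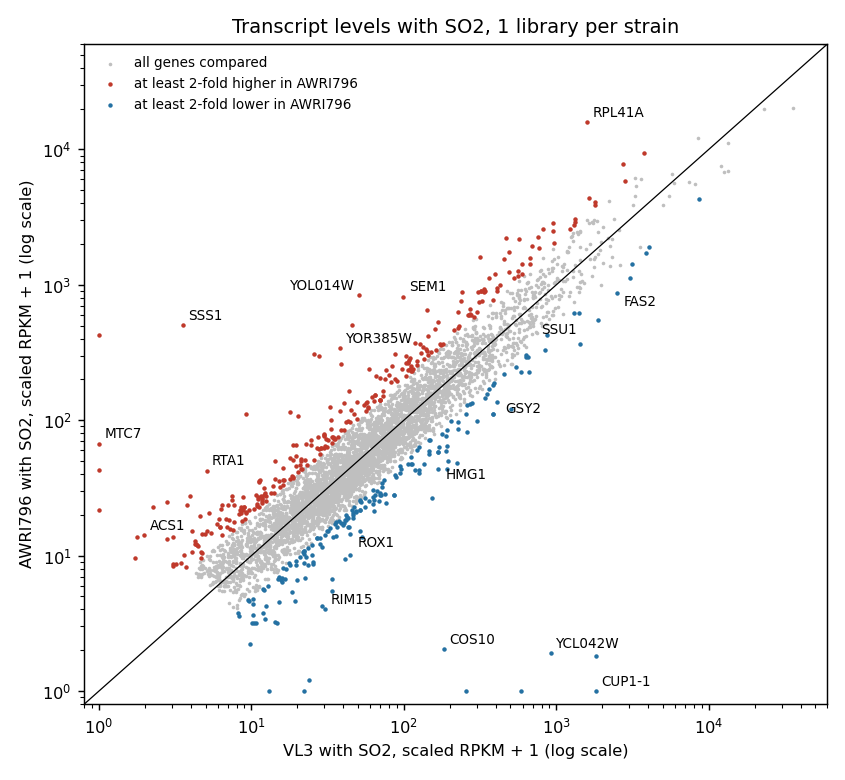
Levels of the 5068 genes with SO2, as scaled RPKM + 1 on log axes, for VL3 (horizontal) and AWRI796 (vertical); each point is 1 gene in 1 library per strain. The 282 genes at least 2-fold higher in AWRI796 are red and the 194 at least 2-fold lower are blue; SSS1 and MTC7 stand far above the diagonal, and COS10, YCL042W and CUP1-1 far below.

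Strongly expressed genes were apart more often than the rest. Of 310 genes with a mean level of at least 500 scaled RPKM, 19.4% were at least 2-fold apart, against 10.1% of 1174 genes between 100 and 500 and 6.37% of 2498 genes between 20 and 100. Below a level of 20 the share was 12.8% of 1086 genes. Genes of up to 300 bases were apart in 23.8% of 185 cases, and longer genes in 8.85% of 4883. Of 79 genes with a near-identical copy, leaving out dubious frames, 49.4% were at least 2-fold apart, against 8.43% of the 4532 genes without any mark.

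Of the 476 genes at least 2-fold apart with SO2, 155 (32.6%) differed the same way by at least 2-fold in the pair of cultures without SO2. A further 179 (37.6%) were less than 1.5-fold apart there, and 36 (7.56%) were at least 2-fold apart in the opposite direction. Among all 5068 genes, 9.02% were at least 2-fold higher and 7.62% lower in AWRI796 without SO2. The 2 pairs share no library. Across all 5068 genes, which are not independent replicates, the differences with and without SO2 had a Pearson r of 0.45 and a Spearman rho of 0.28. The largest differences were mostly those found in both pairs, since 19 of the 31 genes at least 4-fold higher and 19 of the 23 at least 4-fold lower were at least 2-fold apart the same way without SO2.

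**Figure D2:**
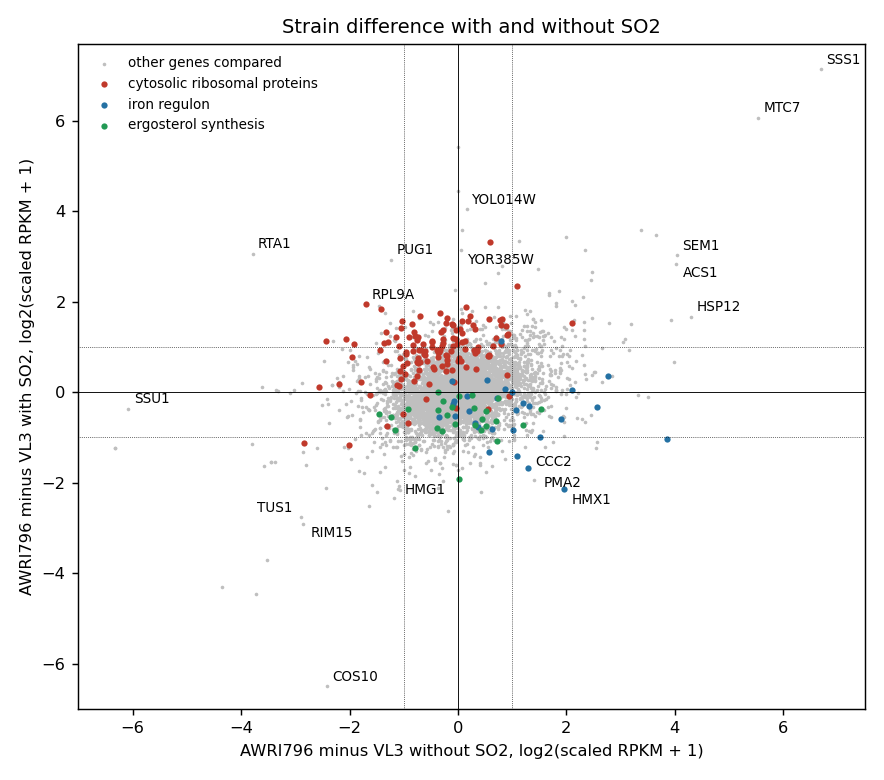
Difference between the strains (AWRI796 minus VL3, log2 scale) without SO2 (horizontal) and with SO2 (vertical); each point is 1 gene, and dotted lines mark 2-fold. YGL088W, YCL041C, YCL042W, YER137W-A, CUP1-1 and CUP1-2 lie beyond the axes; most ribosomal protein genes (red) sit above 0 with SO2, while iron genes (blue) reach the lower right, higher in AWRI796 without SO2 and lower with it.

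Several genes set the strains apart whether or not SO2 was present. SSS1 (YDR086C), a subunit of the channel that carries proteins into the endoplasmic reticulum, stood at 2.48 without and 2.54 with SO2 in VL3, at 359 and 499.5 in AWRI796, and with SO2 at 320.4 in EC1118 and 258 in R008. The difference of 7.14 with SO2 was the largest among genes without an uncertainty mark, and VL3 was the strain that stood apart from the others. SEM1, a small subunit of the proteasome lid, stood at 39.5 without and 98.4 with SO2 in VL3, at 664 and 813 in AWRI796, and with SO2 at 448 in EC1118 and 734 in R008. Both VL3 libraries were again the lowest of the 6. ACS1, which makes acetyl-CoA from acetate, stood at 0.359 without and 0.986 with SO2 in VL3, at 21.1 and 13.2 in AWRI796, and with SO2 at 13.1 in EC1118 and 14.4 in R008. Its level was near 1 in VL3 and above 13 everywhere else, a 7.13-fold difference with SO2 and 16.2-fold without. MTC7, a gene of poorly known function, reached 45.4 and 66.1 in AWRI796 without and with SO2 and was listed at 0 in VL3 each time.

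Other genes higher in AWRI796 at both SO2 levels had their outlying values in different strains. CYC7, an isoform of cytochrome c, stood at 85.2 without and 263 with SO2 in VL3, at 728 and 592 in AWRI796, and with SO2 at 398 in EC1118 and 727 in R008. SPS100, a gene of spore wall maturation that overlaps an antisense RNA and is uncertain, stood at 21 without and 17 with SO2 in VL3, at 122 and 114 in AWRI796, and with SO2 at 14.2 in EC1118 and 13.5 in R008. For CYC7 the low value was that of VL3, whereas for SPS100 the 2 AWRI796 libraries stood above all the others. HSP12, a small stress-induced protein of the plasma membrane, stood at 614 without and 818 with SO2 in VL3, at 12050 and 2600 in AWRI796, and with SO2 at 409.5 in EC1118 and 4737 in R008. The distance between the strains was 3.18-fold with SO2 and 19.6-fold without.

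Among genes lower in AWRI796 at both SO2 levels was RIM15, a protein kinase of the entry into quiescence, at 35.6 without and 29.2 with SO2 in VL3, at 4.08 and 3.01 in AWRI796, and with SO2 at 15.2 in EC1118 and 20.6 in R008. TUS1, which activates the GTPase Rho1 of the cell wall pathway, stood at 28.4 without and 27.9 with SO2 in VL3, at 2.94 and 3.25 in AWRI796, and with SO2 at 18.4 in EC1118 and 30.1 in R008. In both genes the 2 AWRI796 libraries were the lowest of the 6 by a wide margin. FAS2, a subunit of fatty acid synthase, stood at 2324 without and 2490 with SO2 in VL3, at 1141 and 862 in AWRI796, and with SO2 at 822 in EC1118 and 1273 in R008, where both VL3 libraries were the highest. FAS1, which encodes the partner subunit, differed by -0.17 with SO2.

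PDR12, QDR1, ARE2 and YEH1 were also lower in AWRI796 in both pairs. PDR12, the pump that exports weak organic acids, stood at 218 without and 256 with SO2 in VL3, at 50.2 and 109 in AWRI796, and with SO2 at 298 in EC1118 and 195 in R008. QDR1, a multidrug transporter, stood at 15.1 without and 8.74 with SO2 in VL3, at 2 and 1.24 in AWRI796, and with SO2 at 6.87 in EC1118 and 7.29 in R008. AWRI796 held the lowest values for both genes. ARE2, which esterifies sterols for storage, stood at 106 without and 192 with SO2 in VL3, at 48.2 and 42.6 in AWRI796, and with SO2 at 96.4 in EC1118 and 106 in R008. YEH1, which releases sterols from their esters, stood at 232 without and 504 with SO2 in VL3, at 108 and 119.6 in AWRI796, and with SO2 at 182 in EC1118 and 189 in R008. With SO2, VL3 had the highest and AWRI796 the lowest level of ARE2 and of YEH1. Of the 19 multidrug and weak acid exporters and their regulators compared, 7 were at least 1.5-fold lower in AWRI796 with SO2 and 2 at least 1.5-fold higher, against 12.3% lower and 16% higher among all genes, with a median of -0.33. Without SO2, 6 were lower and 3 higher by as much (median -0.43), against 973 lower and 986 higher of all 5068 genes. PDR15, a pump of this list, was 2.43-fold higher without SO2 although it differed by -0.95 with SO2.

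**Figure D3:**
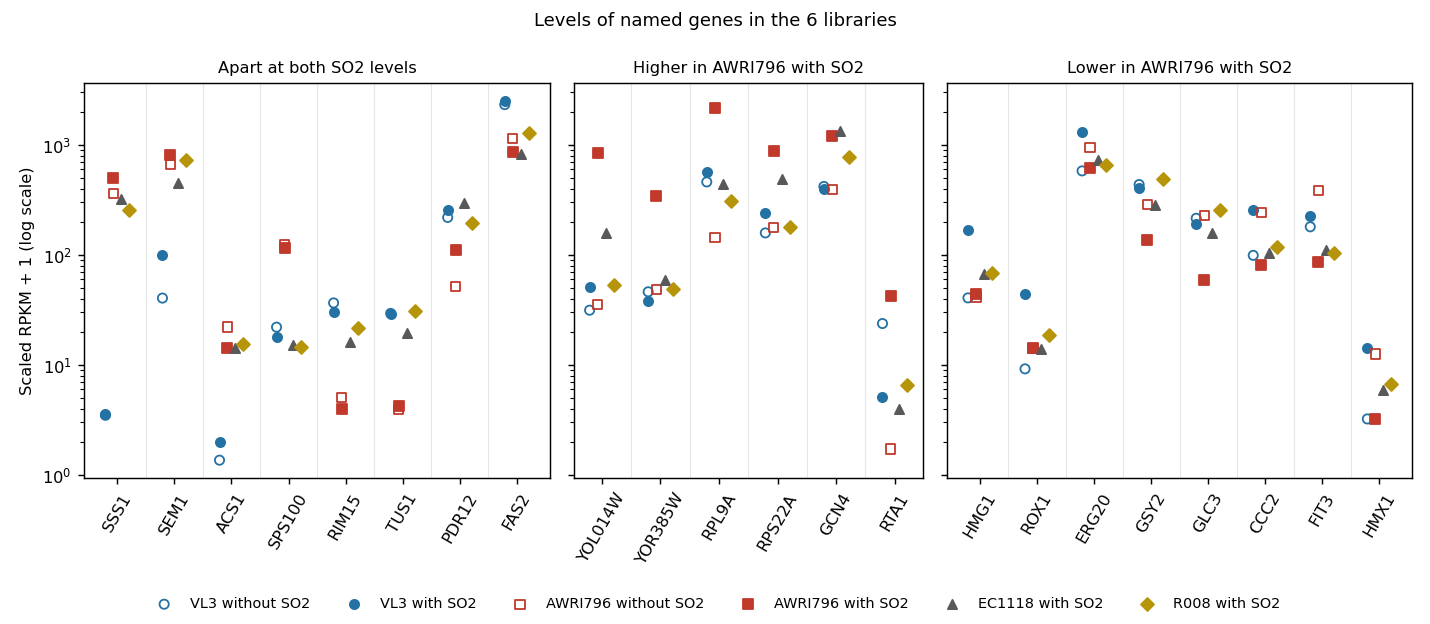
Levels of 22 named genes in the 6 libraries, as scaled RPKM + 1 on a log axis; each symbol is 1 library. SSS1, ACS1, RIM15 and TUS1 separate VL3 from AWRI796 at both SO2 levels, YOL014W and RPL9A are highest in AWRI796 with SO2 (filled squares), and HMG1 and ROX1 are highest in VL3 with SO2 (filled circles).

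Cytosolic ribosomal protein genes formed the broadest group that was higher in AWRI796 with SO2. By at least 2-fold, 63 of the 134 compared were higher and 2 lower, against 5.56% and 3.83% of all genes. By at least 1.5-fold, 103 were higher and 4 lower, against 16% and 12.3% of all genes. Their median difference was 0.93 with SO2 and -0.36 without. The median log2 level of the group was 7.61 and 8.12 in VL3 without and with SO2, 7.36 and 8.98 in AWRI796, 8.36 in EC1118 and 7.82 in R008. AWRI796 with SO2 was therefore the highest of the 6 libraries and AWRI796 without SO2 the lowest. Of 100 members that were at least 1.5-fold higher and had a value in all 4 strains, EC1118 and R008 both lay nearer to VL3 in 78 and both nearer to AWRI796 in 1. Among all 794 such genes the counts were 280 and 260. Leaving out members with a near-identical copy, the median over 96 genes was 0.95.

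RPS22A, a protein of the small ribosomal subunit, stood at 157 without and 241 with SO2 in VL3, at 175 and 887 in AWRI796, and with SO2 at 487 in EC1118 and 177 in R008. RPL29, of the large subunit, stood at 496 without and 455 with SO2 in VL3, at 395 and 1542 in AWRI796, and with SO2 at 925 in EC1118 and 421 in R008. RPL9A, also of the large subunit, stood at 459.6 without and 564 with SO2 in VL3, at 142 and 2181 in AWRI796, and with SO2 at 441 in EC1118 and 311 in R008. For each of these 3 genes AWRI796 with SO2 was the highest of the 6 libraries. RPL9A was 3.86-fold higher in AWRI796 with SO2 but 3.22-fold lower without. It has a similar copy, RPL9B, and the sum of both genes was 1743 in VL3 and 3936 in AWRI796 with SO2. RPS9B went against the group at 237 without and 349 with SO2 in VL3, at 57.8 and 154 in AWRI796, and with SO2 at 309 in EC1118 and 108 in R008, lower in AWRI796 in both pairs, and is named after its values were seen.

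Markers of growth arrest had a median difference near 0 with SO2, but more of them were at least 1.5-fold higher in AWRI796 than lower. The 15 stationary phase genes had a median difference of -0.04 with SO2 (0.09 with unscaled RPKM) and 1.13 without, and a median log2 level of 6.18 in VL3 and 6.47 in AWRI796 with SO2, between 5.49 in EC1118 and 6.73 in AWRI796 without SO2. By at least 1.5-fold, 6 were higher (40%) and 3 lower (20%) with SO2, against 16% and 12.3% of all genes, and by at least 2-fold 4 were higher (26.7%, against 5.56%) and 1 lower. FMP45, a membrane protein of stationary cells, was 10.2-fold higher in AWRI796 with SO2, at 1.255 in VL3 and 22 in AWRI796. SPG4 was 3.9-fold higher, at 4.26 and 19.5, so both folds rest on low VL3 values. GAD1, the glutamate decarboxylase, differed by -1.17. The part of growth state in the ribosomal protein result was not tested. Within the same libraries, 64 ribosome biogenesis genes had a median of 0.21 with SO2, with 11 (17.2%) at least 1.5-fold higher, a share near the 16% of all genes, and 1 lower, and 73 mitochondrial ribosomal protein genes had a median of 0.01 (-0.07 with quantile normalization).

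Single genes of amino acid and one-carbon synthesis were higher in AWRI796 with SO2, while most members of their lists were less than 1.5-fold apart. GCN4, the activator of amino acid synthesis genes, stood at 418 without and 395 with SO2 in VL3, at 394 and 1207 in AWRI796, and with SO2 at 1346 in EC1118 and 783 in R008. With SO2, EC1118 was the highest, AWRI796 next, and R008 lay between AWRI796 and VL3. SHM2, which makes glycine and a one-carbon unit from serine, stood at 22.8 without and 23.7 with SO2 in VL3, at 9.79 and 64.9 in AWRI796, and with SO2 at 70.6 in EC1118 and 28.5 in R008. MTD1, which oxidises the one-carbon unit on folate, stood at 135 without and 107 with SO2 in VL3, at 124 and 277 in AWRI796, and with SO2 at 229 in EC1118 and 111 in R008. In both genes AWRI796 and EC1118 with SO2 were the high libraries. ADE17, of the last steps of purine synthesis, was 2.12-fold higher with SO2 and 2.84-fold lower without. Of 28 purine and one-carbon genes compared, 7 (25%) were at least 1.5-fold higher and 1 (3.57%) lower with SO2, against 16% and 12.3% of all genes, at medians of 0.19 with SO2 and -0.48 without. In the list of branched-chain, histidine and aromatic amino acids, which includes GCN4, 6 of 32 (18.8%) were at least 1.5-fold higher and 3 lower (median -0.01, or 0.12 with unscaled RPKM), a share near that of all genes. Of 20 arginine and lysine genes, 4 (20%) were higher and 1 lower by as much, at a median of 0.10.

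Histone genes were mostly higher in AWRI796 in both pairs, with medians of 0.71 with SO2 and 0.56 without over 11 genes, of which 7 (63.6%, against 16% of all genes) were at least 1.5-fold higher and 1 lower with SO2. HTB1, for histone H2B, stood at 81 without and 129 with SO2 in VL3, at 205 and 311 in AWRI796, and with SO2 at 262 in EC1118 and 184 in R008. HTA1, for histone H2A, stood at 244 without and 273 with SO2 in VL3, at 396 and 595 in AWRI796, and with SO2 at 334 in EC1118 and 355 in R008. Both were highest in AWRI796 with SO2. The histone H4 genes HHF1 and HHF2 are near-identical and uncertain: with SO2 they differed by 1.23 and -1.19, while their sum was 2072 in VL3 and 2192 in AWRI796.

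Ergosterol synthesis was the broadest metabolic group that was lower in AWRI796 with SO2. All 27 genes of the list were compared; none was at least 1.5-fold higher, 13 (48.1%, against 12.3% of all genes) were lower by 1.5-fold or more, and 3 of these by 2-fold or more. Their median difference was -0.55 with SO2 and 0.01 without. HMG1, the reductase that sets the pace of the pathway, stood at 39.6 without and 166 with SO2 in VL3, at 40.3 and 42.9 in AWRI796, and with SO2 at 66 in EC1118 and 67.1 in R008. ERG20, which makes farnesyl diphosphate, stood at 579 without and 1311 with SO2 in VL3, at 954 and 618 in AWRI796, and with SO2 at 724 in EC1118 and 658 in R008. In both genes VL3 with SO2 was the highest of the 6 libraries and AWRI796 the lowest of the 4 strains with SO2. ERG2, the sterol isomerase, stood at 333 without and 338 with SO2 in VL3, at 192 and 144 in AWRI796, and with SO2 at 186 in EC1118 and 183 in R008, high in both VL3 libraries. Of the 13 members at least 1.5-fold lower, EC1118 and R008 were both nearer to AWRI796 in 9 and both nearer to VL3 in 0. Among all 601 genes lower by as much with a value in the 4 strains, the counts were 148 and 251. The median log2 level of the list was 8.91 in VL3 with SO2, and the other 5 libraries lay between 8.28 and 8.76.

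Anaerobic cell wall protein genes and the repressor genes ROX1 and MOT3 were also mostly lower in AWRI796 with SO2, whereas the hypoxic and heme-regulated list that holds these repressors was mixed. Of its 15 genes, 4 (26.7%) were at least 1.5-fold lower and 2 (13.3%) higher, against 12.3% and 16% of all genes. CYC7 was the highest of them at 1.17, and the median was -0.11. ROX1, the repressor of hypoxic genes, stood at 8.2 without and 43.2 with SO2 in VL3, at 13.2 and 13.3 in AWRI796, and with SO2 at 12.9 in EC1118 and 17.6 in R008. MOT3, a second repressor of such genes, stood at 11.6 without and 29.3 with SO2 in VL3, at 6.33 and 13.2 in AWRI796, and with SO2 at 9.59 in EC1118 and 16.1 in R008. VL3 with SO2 was the highest library for both. Of 29 anaerobic mannoprotein genes listed, 10 were compared. Of these 10, 7 were at least 2-fold lower in AWRI796 (70%, against 3.83% of all genes) and none at least 2-fold higher. By at least 1.5-fold, 7 were lower (70%) and 1 higher (10%), against 12.3% and 16% of all genes. The median was -1.39 with SO2 and -0.11 without. PAU23 stood at 56.6 without and 189.8 with SO2 in VL3, at 66.6 and 63.6 in AWRI796, and with SO2 at 102 in EC1118 and 91.7 in R008. PAU5 stood at 2607 without and 3028 with SO2 in VL3, at 2183 and 1128 in AWRI796, and with SO2 at 2119 in EC1118 and 2277 in R008. VL3 with SO2 was the highest library for both of these seripauperin genes. Members with a near-identical copy are uncertain, and the median without them was -1.15 over 5 genes. PAU7 aligned to PAU5 as its near-identical copy, so the level of PAU5 is uncertain too. PAU5 is named after its values were seen.

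The sequence TCGTATA, or its reverse complement, is a core of the sterol response element bound by the sterol regulator Upc2, and it was chosen as a search motif after these differences had been seen. Within the 300 bases before the start codon it occurred in 5 of 27 ergosterol genes (18.5%) and 5 of 10 anaerobic mannoprotein genes (50%), but in 0 of the 15 hypoxic and heme-regulated genes, which include ROX1 and MOT3, against 235 of all 5068 genes (4.64%). With SO2 the 5 ergosterol genes that hold it differed by -1.23 to -0.135, and the 5 mannoprotein genes by -1.96 to 0.65. A match in these letters is a description and not a binding site. The match and its surroundings are shown for 1 gene of each group, read from the R64 genome, the build whose coordinates the deposited table has, in the direction of the gene, with the match in capitals:
ERG8, chr13:712124-712210, plus strand: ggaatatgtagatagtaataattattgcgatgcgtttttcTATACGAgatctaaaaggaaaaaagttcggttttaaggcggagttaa
PAU5, chr6:99805-99891, minus strand: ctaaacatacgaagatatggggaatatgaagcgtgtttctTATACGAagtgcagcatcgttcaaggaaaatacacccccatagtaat

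Both genes carry the motif as its reverse complement, 152 bases before the start codon in ERG8 and 252 in PAU5. ERG8, the phosphomevalonate kinase, stood at 265 without and 360.4 with SO2 in VL3, at 217 and 197 in AWRI796, and with SO2 at 176 in EC1118 and 212 in R008, with the highest level in VL3 with SO2.

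Genes of glycogen and trehalose metabolism were mostly lower in AWRI796 with SO2, while their median without SO2 was above 0. Of 19 compared, 9 (47.4%) were at least 1.5-fold lower and 2 (10.5%) higher, against 12.3% and 16% of all genes, at medians of -0.56 with SO2 and 0.17 without. GSY2, the main glycogen synthase, stood at 435 without and 404 with SO2 in VL3, at 288 and 135 in AWRI796, and with SO2 at 284 in EC1118 and 487 in R008. GLC3, the glycogen branching enzyme, stood at 214 without and 188 with SO2 in VL3, at 226 and 58.5 in AWRI796, and with SO2 at 157 in EC1118 and 256 in R008. GDB1, the debranching enzyme, stood at 93.8 without and 126 with SO2 in VL3, at 124 and 41.9 in AWRI796, and with SO2 at 91.2 in EC1118 and 145 in R008. In all 3 genes AWRI796 with SO2 was the lowest of the 6 libraries and R008 the highest. EC1118 and R008 were both nearer to VL3 in 7 of the 9 members at least 1.5-fold lower. Among all genes lower by as much that had a value in each strain, both were nearer to VL3 in 251 of 601. TPS2, which completes trehalose synthesis, went the other way at 55 without and 75.2 with SO2 in VL3, at 309.6 and 235 in AWRI796, and with SO2 at 189.8 in EC1118 and 283 in R008, with both VL3 libraries lowest.

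Many stress-induced genes of yeast carry AGGGG, the element bound by the stress activators Msn2 and Msn4. It occurred, on either strand, in the 300 bases before the start codon of 10 of the 19 glycogen and trehalose genes (52.6%), 14 of 33 general stress genes (42.4%) and 6 of 15 stationary phase genes (40%), against 22.7% of all 5068 genes. With SO2 the differences of these 10 glycogen and trehalose genes ran from -1.67 to 0.98, and those of the 14 general stress genes from -1.78 to 1.67. Those of the 6 stationary phase genes ran from -1.17 to 3.35, with FMP45, SPS100 and HSP12 the highest. The 3 glycogen genes named above had the lowest differences of the 10. Their matches are shown from the R64 genome in the direction of the gene, with the element in capitals:
GLC3, chr5:132867-132951, plus strand: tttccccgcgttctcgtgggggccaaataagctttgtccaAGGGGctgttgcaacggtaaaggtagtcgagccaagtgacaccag
GSY2, chr12:660480-660564, plus strand: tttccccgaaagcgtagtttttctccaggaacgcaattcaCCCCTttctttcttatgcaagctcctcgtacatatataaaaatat
GDB1, chr16:901812-901896, plus strand: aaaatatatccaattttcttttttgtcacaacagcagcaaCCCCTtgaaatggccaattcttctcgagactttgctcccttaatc

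Of the matches shown, GLC3 has the element as written, 213 bases before its start codon, while GSY2 and GDB1 have the reverse complement at 196 and 192 bases. The median of the general stress and heat shock list was -0.30 with SO2 and 0.10 without, with 10 of 33 (30.3%) at least 1.5-fold lower and 5 (15.2%) higher, the first above and the second near the 12.3% and 16% of all genes. SSA4, a stress-induced HSP70 chaperone, stood at 267 without and 384 with SO2 in VL3, at 142 and 111 in AWRI796, and with SO2 at 58.9 in EC1118 and 289 in R008. HSP30, a membrane stress protein that limits the proton pump, stood at 78.8 without and 37.9 with SO2 in VL3, at 221 and 258 in AWRI796, and with SO2 at 73.2 in EC1118 and 85.1 in R008. SSA4 was thus highest in VL3 with SO2, and HSP30 highest in both AWRI796 libraries.

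Glycolytic genes, among the most abundant transcripts, were lower in AWRI796 in both pairs, with medians of -0.44 with SO2 and -0.47 without over 18 genes. With SO2, 6 of them (33.3%, against 12.3% of all genes) were at least 1.5-fold lower and none was higher by as much. ENO1, an enolase, stood at 13510 without and 13350 with SO2 in VL3, at 18730 and 6891 in AWRI796, and with SO2 at 17590 in EC1118 and 18340 in R008. ADH1, the main alcohol dehydrogenase of fermentation, stood at 5113 without and 4023 with SO2 in VL3, at 3332 and 1909 in AWRI796, and with SO2 at 3789 in EC1118 and 3415 in R008. AWRI796 with SO2 was the lowest library for both, although without SO2 ENO1 was higher in AWRI796. Genes of glycerol metabolism had medians of -0.28 with SO2 and 0.18 without, and 3 of 9 (33.3%, against the same 12.3%) were at least 1.5-fold lower with SO2.

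Iron regulon genes lay on opposite sides in the pairs of cultures with and without SO2. This set of genes for iron uptake and use is switched on by the activators Aft1 and Aft2 when iron is short. Of the 29 compared, 11 (37.9%) were at least 1.5-fold lower in AWRI796 with SO2 and 1 (3.45%) higher, against 12.3% and 16% of all genes, at a median of -0.40, whereas without SO2 the median was 0.86. The median log2 level was 7.13 and 7.38 in VL3 without and with SO2, 8.09 and 6.46 in AWRI796, 6.72 in EC1118 and 6.89 in R008. AWRI796 held both the highest and the lowest value, and no test of this turn is possible with 1 library a group.

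CCC2, the copper pump that loads the iron oxidase, overlaps another feature, is uncertain, and stood at 98 without and 257 with SO2 in VL3, at 240.2 and 80.2 in AWRI796, and with SO2 at 104 in EC1118 and 118 in R008. FIT3, a cell wall protein that holds siderophore iron, stood at 179 without and 226 with SO2 in VL3, at 384 and 84.4 in AWRI796, and with SO2 at 109 in EC1118 and 104 in R008. HMX1, the heme oxygenase that frees iron from heme, stood at 2.22 without and 13.3 with SO2 in VL3, at 11.5 and 2.22 in AWRI796, and with SO2 at 4.88 in EC1118 and 5.67 in R008. All 3 were lower in AWRI796 than in VL3 with SO2 and higher without. FET3, the iron oxidase itself, stood at 244 without and 219.8 with SO2 in VL3, at 703 and 110.2 in AWRI796, and with SO2 at 128 in EC1118 and 135 in R008 and is named after its values were seen. Of the regulators, AFT2 differed by 1.13 and AFT1 by -0.83 with SO2.

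TGCACCC, the core bound by Aft1, occurred on either strand in the 300 bases before the start codon of 15 of the 29 iron genes (51.7%), against 69 of all 5068 genes (1.36%). With SO2 the differences of these 15 genes ran from -1.67 to 0.36, and several lay near 0. Of the genes named here, CCC2, FIT3 and FET3 hold it and HMX1 does not within this window. At -1.67, -1.41 and -0.99, the 3 that hold it lay towards the lower end of the 15. Their matches are shown from the R64 genome in the direction of the gene, with the core in capitals:
CCC2, chr4:1005393-1005479, plus strand: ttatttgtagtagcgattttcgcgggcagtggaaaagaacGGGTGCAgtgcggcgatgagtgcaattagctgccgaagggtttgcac
FIT3, chr15:1061193-1061279, minus strand: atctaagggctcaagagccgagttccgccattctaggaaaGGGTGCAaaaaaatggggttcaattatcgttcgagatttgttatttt
FET3, chr13:388531-388617, plus strand: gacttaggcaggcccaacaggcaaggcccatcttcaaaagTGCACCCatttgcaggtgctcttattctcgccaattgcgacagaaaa

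In CCC2 and FIT3 the core shown is the reverse complement, and each has 2 copies within its 300 bases, of which the nearer one that could be shown at least 100 bases from the start codon is printed. FET3 has 1 copy, 251 bases before the start codon.

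**Figure D4:**
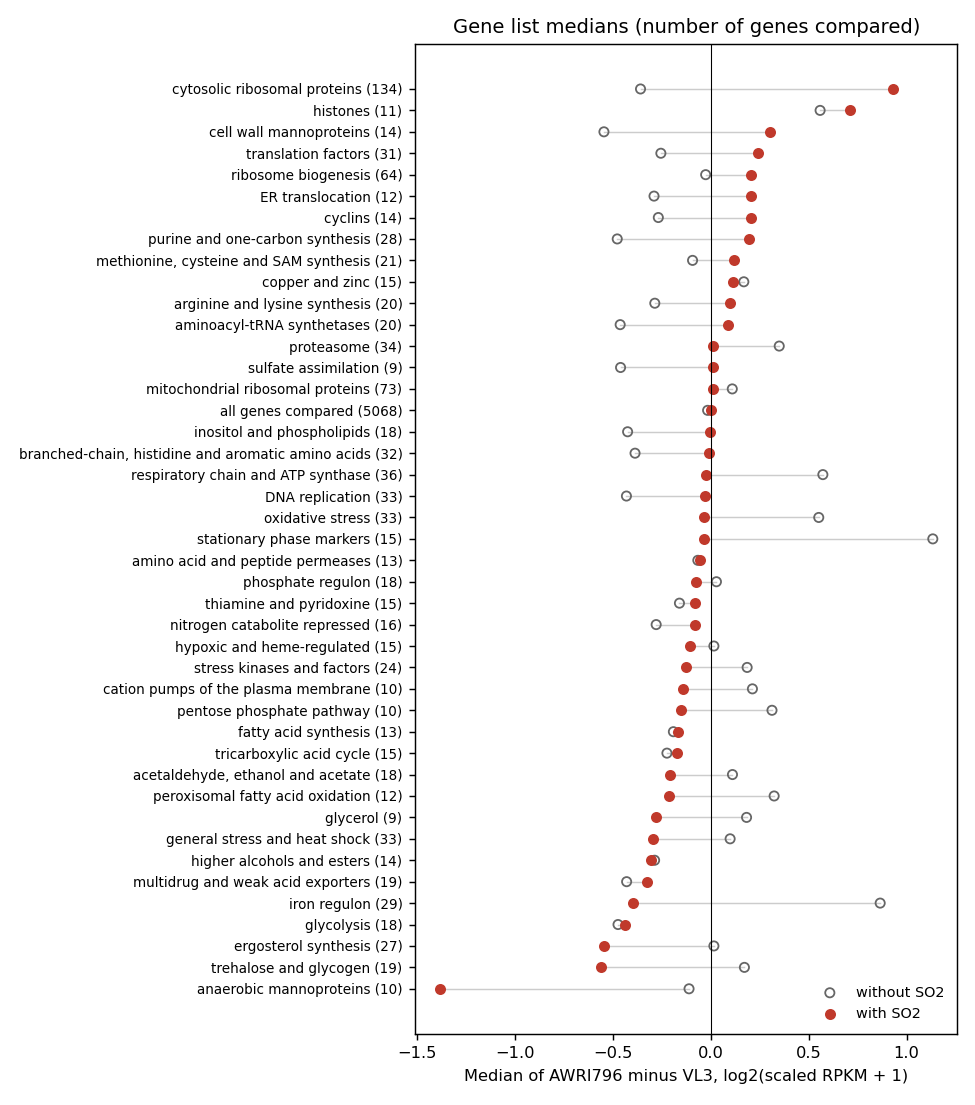
Median difference (AWRI796 minus VL3, log2 scale) of gene lists with at least 9 genes compared, with SO2 (filled) and without (open); the number of genes is in brackets. Ribosomal proteins lie highest with SO2 at 0.93 and anaerobic mannoproteins lowest at -1.39, while the median of all 5068 genes lies at -0.002; stationary phase and iron genes lie to the right only without SO2.

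The sulfite pump and sulfate assimilation differed little between the strains once SO2 was present. SSU1, the pump, stood at 817 without and 709.5 with SO2 in VL3, at 11.1 and 552 in AWRI796, and with SO2 at 949 in EC1118 and 2982 in R008, so the difference of -0.36 with SO2 stood against -6.08 without. FZF1, its activator, differed by -0.10 with SO2, or by 0.018 with unscaled RPKM. Of 9 sulfate assimilation genes compared, 1 was higher and 1 lower by 1.5-fold or more with SO2 (11.1% each), against 16% and 12.3% of all genes. The median was 0.01 with SO2 (-0.07 with quantile normalization) and -0.46 without. Without SO2, 4 of the 9 were lower and 0 higher by as much, against 973 lower and 986 higher of all 5068 genes. MET14, which phosphorylates activated sulfate, stood at 1781 without and 1723 with SO2 in VL3, at 1049 and 2891 in AWRI796, and with SO2 at 1604 in EC1118 and 2232 in R008, highest in AWRI796 with SO2 and lowest in AWRI796 without. CACGTG, the element of the sulfur regulator Cbf1, occurred in 6 of these 9 promoters (66.7%), against 3.63% of all.

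In the steps that follow, 6 of 21 genes of methionine, cysteine and S-adenosylmethionine synthesis were at least 1.5-fold higher in AWRI796 with SO2 (28.6%, against 16% of all genes) and 2 lower (9.52%, against 12.3%), and the median was 0.12 (-0.05 with quantile normalization). MET17, which joins sulfide to its carbon acceptor, stood at 765 without and 961 with SO2 in VL3, at 1516 and 1555 in AWRI796, and with SO2 at 2453 in EC1118 and 3143 in R008. HOM3, which opens the path from aspartate, stood at 29.1 without and 58.6 with SO2 in VL3, at 56.6 and 111 in AWRI796, and with SO2 at 128 in EC1118 and 96.2 in R008. HOM6, of the same path, stood at 1016 without and 946 with SO2 in VL3, at 994 and 1847 in AWRI796, and with SO2 at 1925 in EC1118 and 2135 in R008. With SO2, VL3 was the lowest of the 4 strains for MET17, HOM3 and HOM6. MET2, which makes that acceptor and overlaps another feature, was lower in AWRI796 at -1.01. SAM4, the member farthest apart at 1.49, stood at 18.5 in VL3 and 53.8 in AWRI796 with SO2. In EC1118 and R008 it was lower than in VL3, at 8.12 and 9.38. Of all 6 higher members with a value in every strain, EC1118 and R008 were both nearer to AWRI796 in 5, against 260 of 794 among all genes that were at least 1.5-fold higher.

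Of genes without an uncertainty mark that were less than 1.5-fold apart without SO2, YOL014W, YDR034W-B and YOR385W, all of poorly known function, had the largest differences with SO2. The ribosomal protein gene RPL41A, which has a near-identical copy and is uncertain, was 9.97-fold higher, and YPR203W and YHL049C, uncertain for the same reason, stood at 42 and 20.8 in AWRI796 and were listed at 0 in VL3. RPL41B, the copy of RPL41A, stood at 5032 in VL3 and 3912 in AWRI796 with SO2. The sum of RPL41A and RPL41B was 6616 in VL3 and 19720 in AWRI796. YOL014W stood at 30.4 without and 49.5 with SO2 in VL3, at 34.2 and 837 in AWRI796, and with SO2 at 156 in EC1118 and 52.2 in R008. YOR385W stood at 45.2 without and 37.3 with SO2 in VL3, at 47.2 and 341 in AWRI796, and with SO2 at 57.8 in EC1118 and 47.6 in R008. Both were several times higher in AWRI796 with SO2 than in any other library, at 16.6-fold and 8.91-fold over VL3. YDR034W-B was 11.9-fold higher with SO2. ZEO1, a protein attached to the plasma membrane that signals to the cell wall pathway, was 10.8-fold higher with SO2 and 3.97-fold without.

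Among the 36 genes at least 2-fold apart one way with SO2 and the other way without, RTA1 had the widest distance between its differences. RTA1, a membrane protein of the lipid-translocating exporter family, stood at 22.8 without and 4.07 with SO2 in VL3, at 0.72 and 41.5 in AWRI796, and with SO2 at 2.95 in EC1118 and 5.6 in R008, highest in AWRI796 with SO2 and lowest in AWRI796 without. PUG1, of the same family, stood at 2.31 without and 0.787 with SO2 in VL3, at 0.416 and 12.6 in AWRI796, and with SO2 at 1.53 in EC1118 and 1.36 in R008, with the same order of the AWRI796 libraries. The other 2 members compared, RSB1 and RLA1, differed by -0.72 and -0.51 with SO2, so the 4 members differed in direction. PMA2, a minor form of the plasma membrane proton pump, had the opposite order at 66.2 without and 51.9 with SO2 in VL3, at 178 and 12.7 in AWRI796, and with SO2 at 6.97 in EC1118 and 46.5 in R008. Of the cell wall mannoproteins and their enzymes, UTR2 and CRH1, which link chitin to glucan, were 2.19-fold and 2.24-fold higher with SO2 and 4.94-fold and 2.25-fold lower without. That list of 14 had a median of 0.30 with SO2 and -0.55 without, with 4 members (28.6%, against 16% of all genes) at least 1.5-fold higher and 1 (7.14%, against 12.3%) lower with SO2.

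Peroxisomal fatty acid oxidation and oxidative stress genes gave scattered members. POX1, which opens fatty acid oxidation, stood at 68.9 without and 42.9 with SO2 in VL3, at 91.4 and 15.4 in AWRI796, and with SO2 at 30.4 in EC1118 and 36.3 in R008, and AWRI796 was the lowest with SO2 although it was the highest without. Of 12 genes of that pathway, 4 (33.3%, against 12.3% of all genes) were at least 1.5-fold lower and 1 (8.33%, against 16%) higher. SOD1, the cytosolic superoxide dismutase, stood at 1005 without and 865 with SO2 in VL3, at 960.3 and 426 in AWRI796, and with SO2 at 787 in EC1118 and 999.5 in R008. AWRI796 with SO2 was the lowest library. Of 33 oxidative stress genes compared, 7 (21.2%) were at least 1.5-fold lower and 5 (15.2%) higher, the second near the 16% of all genes, with a median of -0.04 (0.09 with unscaled RPKM). Respiratory chain genes had medians of -0.03 with SO2 (0.10 with unscaled RPKM) and 0.57 without over 36 genes.

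Genes at least 2-fold apart did not gather in a single place of the genome. Chromosome medians of the difference with SO2 ran from -0.08 on chromosome 6 to 0.14 on chromosome 3. Chromosome 1 had a median of -0.03 with SO2 and 0.47 without. No run of 4 or more neighbouring genes was at least 2-fold apart the same way, and the only run of 3 consisted of overlapping frames. In the outer 30 kb of the chromosomes 26 of 190 genes (13.7%) were at least 2-fold apart, against 9.23% of the 4878 inside. Among genes without an uncertainty mark the shares were 5.96% and 8.51%.

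**Figure D5:**
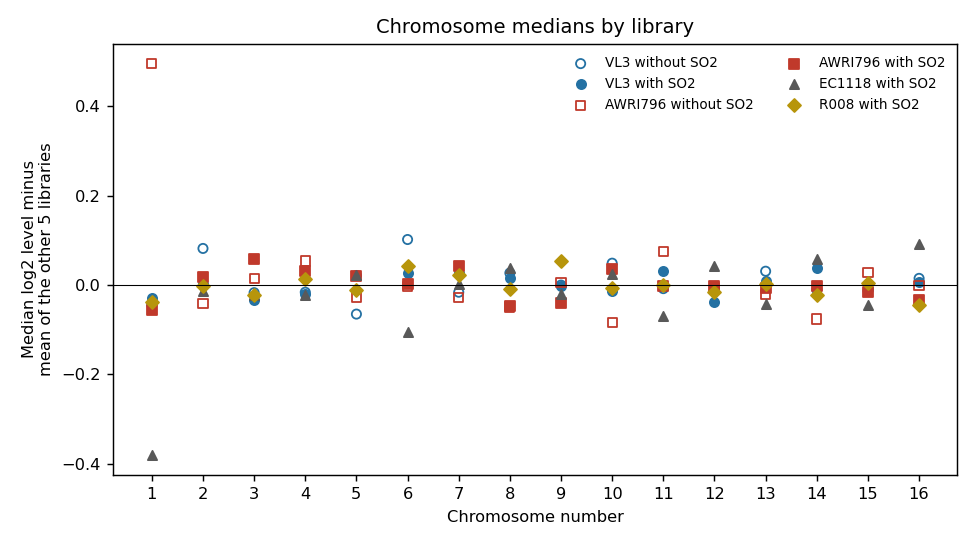
Median over each chromosome of the log2 level of a library minus the mean of the other 5 libraries; each symbol is 1 library. With SO2, VL3 and AWRI796 both lie close to 0 on every chromosome, and on chromosome 1 AWRI796 without SO2 stands at 0.50 and EC1118 at -0.38.

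Near-identical or overlapping genes gave the lowest differences of all and are uncertain as single genes. The metallothionein genes CUP1-1 and CUP1-2, which bind copper, each stood at 1821 in VL3 with SO2, while in AWRI796 they were listed at 0 and stood at 0.81. With SO2 both were listed at 0 in EC1118, and they stood at 8187 and 32.9 in R008. The translation elongation factor genes TEF1 and TEF2 stood at 44.3 and 1874 in VL3 with SO2 and at 501.5 and 545 in AWRI796, so they differed in opposite directions. Their sum was 1918 in VL3 and 1047 in AWRI796 with SO2, and 1066 and 648 without. YCL042W, a frame that overlaps GLK1, stood at 919 in VL3 and 0.90 in AWRI796. COS10, of a gene family near chromosome ends, stood at 253 without and 183 with SO2 in VL3, at 46.5 and 1.03 in AWRI796 and at 65.7 in EC1118, and R008 had no value. Unlike the other genes of this paragraph, COS10 carries no uncertainty mark, and it differed by -6.5 with SO2.

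A value in only 1 of the strains kept further genes out of the comparison. AWRI796 alone of this pair had a value for 97 rows, 61 of them at 5 RPKM or more, and VL3 alone for 104 rows, 57 at 5 or more. Of the AWRI796 rows, 67 had a value in both EC1118 and R008, as had 66 of the VL3 rows. RPL27A, a ribosomal protein gene, stood at 1633 in AWRI796 with SO2, and TIR1, an anaerobic mannoprotein gene, at 598. HXT3, a hexose transporter gene, stood at 1509 in VL3 with SO2 and UBI4, a polyubiquitin gene, at 664. None of these genes is described here as absent from the other strain.

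With SO2, EC1118 and R008 were more often both nearer to VL3 than both nearer to AWRI796, in either direction. Of the 272 genes at least 2-fold higher in AWRI796 that had a value in all 4 strains, EC1118 and R008 were both nearer to AWRI796 in 82 and both nearer to VL3 in 112. Of the 181 genes at least 2-fold lower, both were nearer to AWRI796 in 40 and both nearer to VL3 in 96. Among genes with a value in all 4 strains with SO2 and a mean of at least 5 RPKM over the pair compared, AWRI796 and VL3 were at least 2-fold apart in 9.08% of 4987 genes. The other pairs, which share these libraries, ranged from 4.48% between EC1118 and R008 to 8.44% between AWRI796 and R008.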

How the data were processed

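Transcripts were measured in 6 libraries, 1 for each strain and SO2 level analysed here. The values are RPKM as deposited by the authors, per the file headers, rounded to 2 decimals. For the aligner, counting tool, genome build and gene models, nothing is given in the sources used here. Columns and samples were matched by title. Of 6611 rows, 77 carry no database identifier; 8 rows that shared names were dropped and 2 genes whose entries ran on from another line were recovered. Start and end equalled those of R64 for 5853 of 5861 coding genes, which is why sequences were read from that build.

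RPKM were divided by median-of-ratios factors computed over the 6 libraries from 4993 genes with an identifier, a mean of at least 5 and no 0. Deposited RPKM summed to between 778099 and 1070965 per library. Depth is unknown, so values carry no counting interval and no detection floor. Differences were taken on log2(scaled RPKM + 1) in Python 3.11.15 with pandas 2.3.3 and numpy 2.4.6, and the step was tested on simulated data. With 1 library a group there is no test, and genes or lists are described by size (1.5-, 2- and 4-fold), by counts and by medians beside those of all genes. Near-identical copies are pairs of coding sequences that BLAST+ 2.17.0 aligned over 80% of the gene or more with 95% identity or more; overlaps cover at least 10% of the gene.

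Genes were named by a rule: SSU1 and FZF1, the highest and lowest differences, those apart at both SO2 levels, the widest turns, and the leading members of each of 52 lists. Some exceptions are marked as named after their values were seen. FAS1, GAD1, AFT1, YPR203W and YHL049C also fall outside the rule and carry no such mark where they are named. So do copies of named genes, genes with a value in only a single strain of the pair, and genes beyond the axes of a figure. The comparison, the members, the lists and the motifs were chosen with earlier results of these data known. Alternatives changed the pseudocount, the minimum, the scaling and the genes kept.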

Additional observations from a re-analysis of the deposited data

Results flagged for a closer look

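The differences between AWRI796 and VL3 had opposite directions with and without SO2, by at least 2-fold each way, in 36 genes. Of these, 24 were higher in AWRI796 with SO2 and 12 lower. The 24 were 8.51% of the 282 genes higher with SO2, against 7.62% of all genes at least 2-fold lower without SO2. The 12 were 6.19% of the 194 genes lower with SO2, against 9.02% of all genes at least 2-fold higher without. Turns were thus about as frequent as these shares of all genes. The 8 widest turns each way are given here, with dubious frames and members of near-identical pairs left out. With 1 library a group, the difference between the differences was not tested. Higher in AWRI796 with SO2 and lower without were RTA1 (a log2 difference of 3.06 with SO2), PUG1 (2.93), RPL9A (1.95), TOS7 (1.75), RPL30 (1.17), UTR2 (1.13), ASC1 (1.13) and RPS12 (1.07). Lower with SO2 and higher without were YJR005C-A (-1.02), UGX2 (-1.09), YTP1 (-1.11), ECM4 (-1.22), DIP5 (-1.24), CCC2 (-1.67), PMA2 (-1.95) and HMX1 (-2.15). ASC1 and CCC2 overlap another feature and are uncertain.

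Of the first group, RPL9A, RPL30 and RPS12 are ribosomal proteins and ASC1 is a protein that sits on the ribosome. DIP5, a permease for glutamate and aspartate, stood at 5.67 and 14.5 in VL3 without and with SO2, and at 37.9 and 5.59 in AWRI796. ECM4, a glutathione transferase, stood at 29.8 and 57.7 in VL3 and at 93.4 and 24.3 in AWRI796. In both genes AWRI796 without SO2 was the highest of these 4 libraries.

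The medians of 28 of 52 gene lists had opposite signs in the pairs of cultures, many of them near 0, which was not tested. In 3 lists with at least 5 genes compared, both medians lay at least 0.3 from 0. They were 0.93 with SO2 for cytosolic ribosomal proteins, -0.40 for the iron regulon and 0.30 for cell wall mannoproteins. The RTA1 family, with 4 genes compared, also had opposite medians at 1.21 with SO2 and -0.61 without.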

How the results depend on the processing

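Every difference rests on 1 library a side. The counts at least 2-fold higher and lower, 282 and 194, became 303 and 216 at a pseudocount of 0.1, 215 and 135 at a pseudocount of 5, 207 and 134 at a minimum of 20, and 348 and 251 without a minimum. They were 254 and 212 with quantile normalization, 283 and 193 with scaling over the 2 libraries alone, and 233 and 149 without uncertain genes. None moved by more than 1.5 times. Of 255 named genes, MSB2 (0.067) and FZF1 (0.018) had another sign with unscaled RPKM and none under the other alternatives run, and 40 of 1945 values moved, at pseudocounts of 0.1 or 5. Of 52 list medians, the median of the RTA1 family was 0.57 at a pseudocount of 5 and -0.51 at a minimum of 20, where fewer genes remain. With unscaled RPKM 12 list medians had another sign, with quantile normalization 6, at a minimum of 20 also 6, without a minimum 3 and without uncertain genes 3. The cause was not tested for the other moved values. No paired analysis was possible because each group has 1 library.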

Other observations

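Chromosome 1 stood apart in libraries outside the comparison with SO2. Over its 68 genes with a value in all 6 libraries, the median log2 level relative to the mean of the other 5 libraries was 0.50 in AWRI796 without SO2 and -0.38 in EC1118 with SO2. It was between -0.06 and -0.03 in the remaining libraries, AWRI796 with SO2 included. The 2 AWRI796 libraries therefore differ in the level of this chromosome, although both carry the same strain label.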
